A study of Mus musculus with 13 samples.

Results

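p53, the product of Trp53, and 9 of its target genes were followed in aortic endothelial cells (ECs) and hearts of Hmox2-/- mice. The 10 genes were Trp53, Cdkn1a, Mdm2, Ccng1, Bax, Bbc3, Eda2r, Phlda3, Sesn2 and Trp53inp1, chosen by name from 36109 genes with a listed transcript, and all 10 were measured and passed the filter on low counts in both tissues. RNA was sequenced from aortic ECs of 3 Hmox2-/- mice (EC KO 1 to EC KO 3) and 3 wildtype littermates, Hmox2+/+ (EC WT 1 to EC WT 3), and from whole hearts of 3 Hmox2-/- mice (heart KO 1 to heart KO 3) and 4 Hmox2+/+ mice (heart WT 1 to heart WT 4). All mice breathed room air. The deletion was carried in all tissues and not in ECs or heart muscle alone, and the sequenced mice were young according to the study, with their sex not given in the sources used here.

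p53 is a transcription factor that is held at a low level by the ubiquitin ligase Mdm2 and is released by DNA damage and other stress. It is controlled mainly through the stability and modification of its protein, so the level of its mRNA does not measure its activity. Its targets include the cell cycle inhibitor p21 (Cdkn1a), its own inhibitor Mdm2, cyclin G1 (Ccng1), the mitochondrial cell death genes Bax and Bbc3 (which encodes Puma), the receptor gene Eda2r, the Akt inhibitor Phlda3, and the stress and autophagy genes Sesn2 and Trp53inp1. In the heart and the vessel wall this pathway is best known for cell cycle arrest, senescence and cell death.

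Total estimated counts per library ranged from 26067147 to 31619776, except for heart WT 1 with 7268626, so the levels of low genes in heart WT 1 rest on few counts. Hmox2 itself was 63.9 to 76.2 CPM (counts relative to the TMM-normalized library size) in EC WT and 12.6 to 14.7 CPM in EC KO libraries, and 37.3 to 42.5 and 7.53 to 8.90 CPM in heart WT and heart KO libraries. Of its sequence words 73.4% are shared with other genes, mainly Cdip1 on the opposite strand. The Y-linked gene Ddx3y was near 0 in EC KO 2 (1.03 CPM) and EC KO 3 (0.920 CPM) and at least 37.0 CPM in the other 11 libraries, so results in ECs are also given without this pair. Such fits leave EC KO 1 as the only Hmox2-/- EC library. All 12 endothelial marker genes were present in every EC library (summed level 2569 to 3722 CPM in EC WT and 4568 to 5344 CPM in EC KO), but those libraries also held 10 adipocyte markers at 8903 to 13888 CPM in EC WT and 9304 to 9718 CPM in EC KO, and smooth muscle and fibroblast markers. The hearts held 12 cardiomyocyte markers at 58264 to 63984 CPM. In bulk RNA, fewer cells of a type and less RNA per cell cannot be told apart.

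Upstream DNA is shown first for Cdkn1a, Bax and Phlda3, which were called in a tissue. It is also shown for Ccng1, which was not called as reported but whose window held a full site. DNA outside the windows described next was not searched. The promoter windows of RefSeq (GRCm38.p6, from 250 bases before to 50 bases after each transcript start) held 12 windows for 9 of the 10 genes. Trp53inp1 had none. The windows were searched for the 10-base p53 half-site consensus by its name, which reads the same on both strands. A half-site was found in 8.36% of all 32851 windows and in 5 of the 12 windows here (Cdkn1a upstream start, Mdm2, Ccng1, Bax and Trp53). A match is a description of letters and not a site shown to be bound. In the sequences below, each of 250 bases before the start and read 5' to 3' on the gene's strand, capitals mark a half-site, or a run of 20 bases that makes a full site with 1 base off the consensus.
Cdkn1a, upstream start, chr17:29090729-29090978, plus strand: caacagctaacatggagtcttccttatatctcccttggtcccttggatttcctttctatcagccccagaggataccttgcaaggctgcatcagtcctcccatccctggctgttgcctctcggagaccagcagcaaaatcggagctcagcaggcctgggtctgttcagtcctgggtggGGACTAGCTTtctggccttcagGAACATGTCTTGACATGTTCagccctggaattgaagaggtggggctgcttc
Ccng1, chr11:40755287-40755536, minus strand: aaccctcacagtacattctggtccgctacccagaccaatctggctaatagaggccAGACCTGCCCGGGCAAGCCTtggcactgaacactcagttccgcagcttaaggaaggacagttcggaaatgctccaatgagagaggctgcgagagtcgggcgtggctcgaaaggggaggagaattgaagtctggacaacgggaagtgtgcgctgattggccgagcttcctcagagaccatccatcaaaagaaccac
Bax, chr7:45466899-45467148, minus strand: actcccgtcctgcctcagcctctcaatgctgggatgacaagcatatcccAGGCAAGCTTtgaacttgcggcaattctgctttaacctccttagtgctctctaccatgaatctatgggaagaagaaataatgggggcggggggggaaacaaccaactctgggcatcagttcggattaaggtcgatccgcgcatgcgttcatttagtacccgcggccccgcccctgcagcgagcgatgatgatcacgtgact
Phlda3, chr1:135765835-135766084, plus strand, no half-site: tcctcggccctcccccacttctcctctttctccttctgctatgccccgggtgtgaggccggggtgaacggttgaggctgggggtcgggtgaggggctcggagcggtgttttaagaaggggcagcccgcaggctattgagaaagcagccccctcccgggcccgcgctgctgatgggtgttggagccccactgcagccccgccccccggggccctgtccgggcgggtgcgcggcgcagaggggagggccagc

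The Cdkn1a window was the richest. It held the run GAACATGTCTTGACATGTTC, which lies 51 bases before the upstream start, and a further half-site to its left. A pair of half-sites at most 13 bases apart was found in 24 (0.0731%) of all windows, and Cdkn1a was the only one of the 10 genes among them. A full site of 20 bases with at most 1 base off the consensus was found in 29 (0.0883%) of all windows, and in 2 of the 12 here, those of Cdkn1a and Ccng1. The downstream start of Cdkn1a, 2790 bases away, and the windows of Phlda3, Sesn2, Bbc3 and Eda2r held no half-site, which says only that these letters are not in these windows.

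The first question was whether p53 mRNA and its targets differed between genotypes in the heart. Of the 10 genes, Cdkn1a and Bax rose in Hmox2-/- hearts and Trp53inp1 fell, while the other 7, Trp53 and Mdm2 included, did not pass the test. The 3 calls compare with 33.4% of the 13816 genes tested in heart that were called (edgeR's quasi-likelihood test, Benjamini-Hochberg adjusted p of at most 0.05), so their number is near the background. Only Cdkn1a also reached a log2 fold change of 1, which 6.71% of the genes tested did. The 2 genotypes were fully separated for 4 of the 10 genes (Cdkn1a, Bax, Mdm2 and Sesn2), against 40.4% of the genes tested.

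Cdkn1a encodes p21, which binds and inhibits cyclin-dependent kinases (chromosome 17, 29309936 to 29319701, plus strand of GRCm39). Its level was 14.1, 10.3, 12.6 and 12.9 CPM in heart WT 1 to heart WT 4 and 38.96, 28.4 and 37.2 CPM in heart KO 1 to heart KO 3. All 3 Hmox2-/- hearts lay above all 4 Hmox2+/+ hearts, and heart KO 2 was the lowest of them. The fold change was 2.83 (log2 fold change 1.499, SE 0.14, edgeR adjusted p = 4.10e-05). With any 1 heart library left out it was 1.42 to 1.63 on the log2 scale with an adjusted p of at most 3.06e-04. The leading transcript, Cdkn1a-201, carried 89.7% to 100% of the gene's TPM in heart WT and 95.7% to 97.5% in heart KO.

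**Figure D1:**
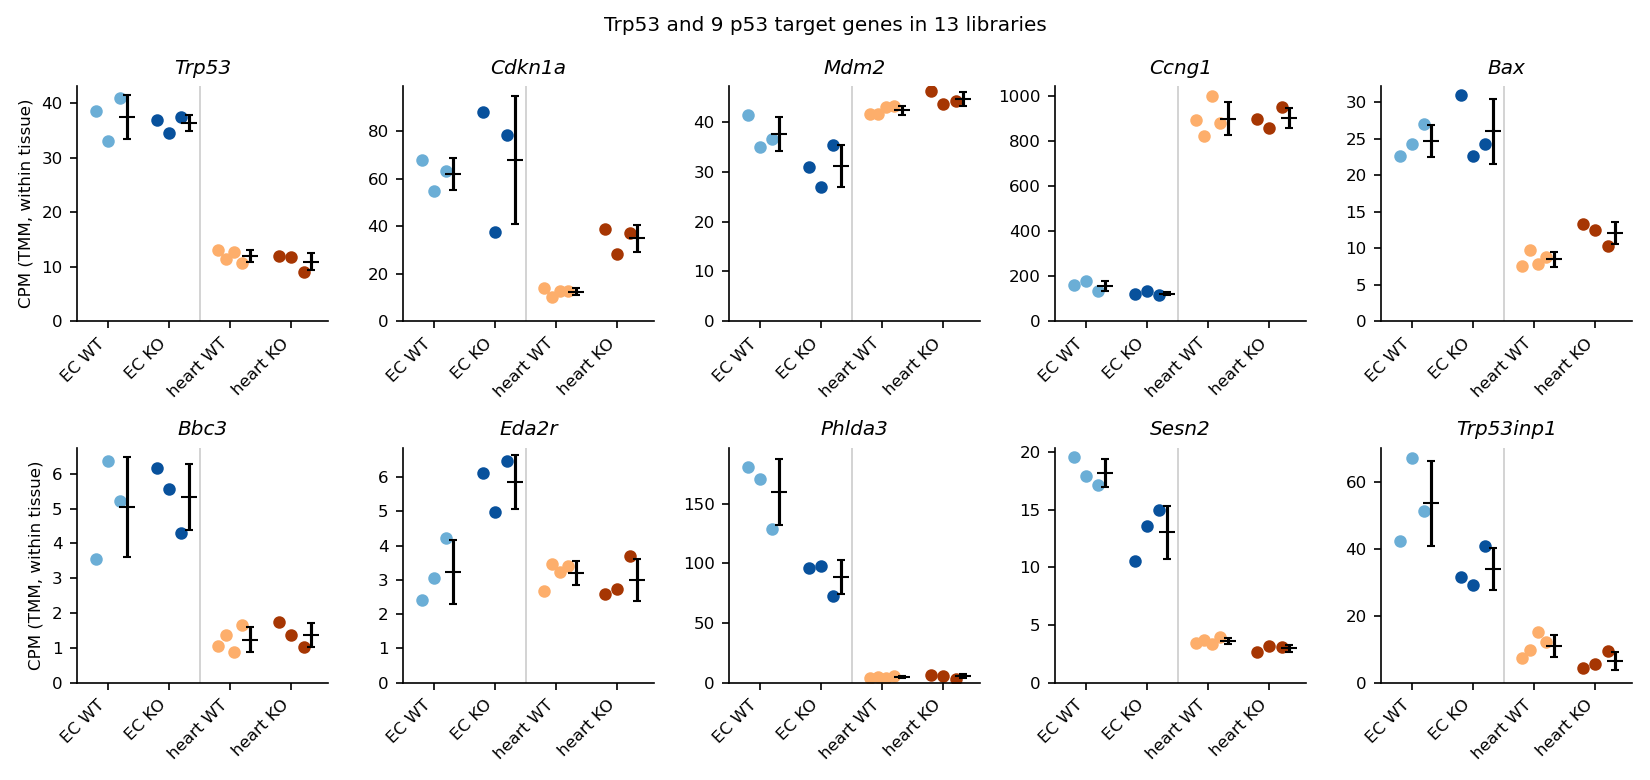
CPM (TMM-normalized within each tissue) of the 10 genes in 13 libraries, 1 point per library in replicate order, with the mean and SD of each group as a bar beside the points. Cdkn1a in heart stands at 28.4 to 38.96 CPM in Hmox2-/- and 10.3 to 14.1 CPM in Hmox2+/+ libraries, and Phlda3 in ECs at 72.2 to 97.6 CPM against 128.3 to 180.6 CPM.

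The Hmox2-/- hearts also differed from the Hmox2+/+ hearts in ways other than Cdkn1a. Mitochondrially encoded genes held 37.6% to 44.3% of the counts in heart WT and 22.5% to 27.2% in heart KO libraries. The 7 red cell markers measured summed to 183 to 341 CPM in heart WT and 888 to 1457 CPM in heart KO, with up to 2 of them at 0 in a heart WT library. The 10 macrophage markers summed to 154 to 228 and 248.7 to 420 CPM, the 10 smooth muscle markers to 1613 to 1841 and 1992 to 2532 CPM, the 12 endothelial markers to 588 to 702 and 720 to 758 CPM, and the 10 adipocyte markers to 5462 to 6351 and 4530 to 5004 CPM. None of these sums overlapped between genotypes. Of the 7 adipocyte markers tested in heart, however, 6 had a higher and 1 a lower fitted value in Hmox2-/- hearts (median log2 fold change 0.25). In heart WT 1, 6 of the 10 adipocyte markers were at 0. The part of these sums in the result, and that of the mitochondrial share, was not tested.

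Fold changes in heart followed transcript length. Across the 13816 genes tested, Spearman's rho between the log2 fold change and length was -0.51, and between the log2 fold change and GC content 0.23, as a description across genes, which are not independent replicates. The median log2 fold change went from 0.41 in the shortest 2764 genes to -0.36 in the longest 2763. This trend bears on each gene here by its own length, so values are also given with an offset for length and GC content. With it, Cdkn1a (1862 bases) had a log2 fold change of 1.32 (SE 0.14, edgeR adjusted p = 6.00e-05) and remained called.

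Bax, the protein that opens the outer mitochondrial membrane in apoptosis (chromosome 7, 45111015 to 45116325, minus strand), is the shortest of the 10 genes. Its level was 7.58, 9.73, 7.77 and 8.74 CPM in heart WT 1 to heart WT 4 and 13.2, 12.6 and 10.4 CPM in heart KO 1 to heart KO 3, and the groups did not overlap. The log2 fold change was 0.50 (SE 0.14, edgeR adjusted p = 0.0187). With the offset for length and GC content it was 0.02 (SE 0.11, adjusted p = 0.924), so this call was lost. It was also lost without heart WT 3 (adjusted p = 0.0593), heart KO 1 (0.0546) or heart KO 2 (0.0711). Bax shares 192 exonic bases with Gm45808 on the same strand and 10.4% of its sequence words with other genes.

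Trp53inp1, a stress gene that acts in autophagy and cell death (chromosome 4, 11156412 to 11175230, plus strand), is the longest of the 10 at 4965 bases. Its level was 7.44, 9.66, 15.04 and 12.1 CPM in heart WT 1 to heart WT 4 and 4.47, 5.63 and 9.45 CPM in heart KO 1 to heart KO 3. The groups overlapped, since heart KO 3 lay above heart WT 1. The log2 fold change was -0.79 (SE 0.27, edgeR adjusted p = 0.0406). With the offset it was -0.33 (adjusted p = 0.239), and the call was lost without any 1 of heart WT 2, heart WT 3, heart WT 4, heart KO 1 and heart KO 2 (adjusted p = 0.0629 to 0.140). Its value in heart WT 1 rests on 50 counts.

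The upstream genes of the pathway did not pass in heart. Trp53 (chromosome 11, 69469669 to 69482701, plus strand) was 13.1, 11.5, 12.6 and 10.7 CPM in heart WT and 11.9, 11.8 and 9.10 CPM in heart KO libraries, a fitted difference of -0.12 on the log2 scale (SE 0.14, edgeR adjusted p = 0.529). Mdm2 (chromosome 10, 117524780 to 117546730, minus strand) was 41.6, 41.7, 43.0 and 43.3 CPM in heart WT and 46.3, 43.6 and 44.2 CPM in heart KO libraries, a fitted difference of 0.08 on the log2 scale (SE 0.08, edgeR adjusted p = 0.513). The Mdm2 values did not overlap, but the step between the groups was small beside the levels. Trp53 shares 263 exonic bases with Wrap53 on the opposite strand, and the counting did not use the strand.

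Ccng1, which encodes cyclin G1 (chromosome 11, 40639377 to 40646148, minus strand), was by far the most abundant of these genes in heart, at 824 to 1002 CPM in heart WT (median 888) and 860 to 952 CPM in heart KO. By the fit it differed by 0.00467 on the log2 scale (SE 0.10, edgeR adjusted p = 0.977). With the offset for length and GC content it was 0.30 (SE 0.07, adjusted p = 0.00783) and was called, so for this gene of 3512 bases the call depends on the offset. The remaining 4 genes were low in heart and did not pass. Phlda3 was 4.02 to 5.77 CPM in heart WT and 3.47 to 6.52 CPM in heart KO (log2 fold change 0.17, SE 0.23), Eda2r 2.68 to 3.46 and 2.59 to 3.71 CPM (-0.11, SE 0.19), Sesn2 3.35 to 3.93 and 2.64 to 3.21 CPM (-0.29, SE 0.17), and Bbc3 0.876 to 1.66 and 1.02 to 1.73 CPM (0.11, SE 0.31). In heart WT 1 Bbc3 had 7 counts and Eda2r 18.

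**Figure D2:**
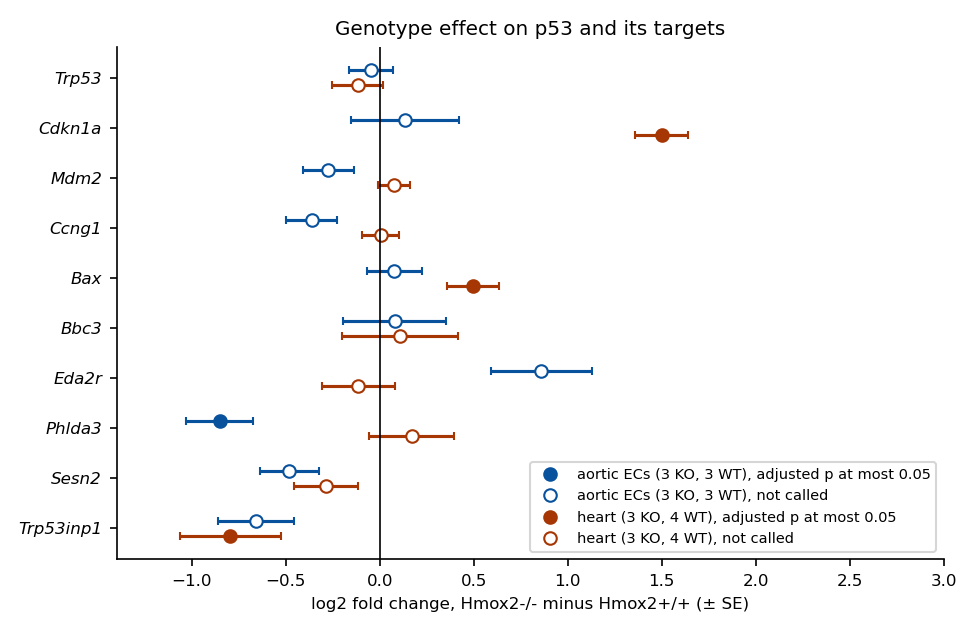
Log2 fold change of Hmox2-/- minus Hmox2+/+ libraries for the 10 genes in aortic ECs and heart. Bars are the SE derived from edgeR's F statistic, and filled points have an adjusted p of at most 0.05. Cdkn1a in heart (1.499) lies apart from its value in ECs (0.13), and Phlda3 in ECs (-0.85) from its value in heart (0.17).

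In ECs the same comparison gave another picture. Of the 10 genes only Phlda3 was called and it fell, while Cdkn1a, Bax, Bbc3, Mdm2 and Trp53 did not pass. Over all 15301 genes tested in ECs 18.1% were called, so 1 of 10 is no more than the background. At an unadjusted p under 0.05 there were 5, a count not given here over all genes. DESeq2 called 4, where it called 2090 higher and 1943 lower of all 15301 genes tested. The 2 genotypes were fully separated for 5 of the 10 genes, against 40.7% of the genes tested.

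Phlda3 encodes a small protein with a pleckstrin homology domain that competes with Akt for membrane lipids (chromosome 1, 135693809 to 135697686, plus strand). It was 180.6, 170.7 and 128.3 CPM in EC WT 1 to EC WT 3 and 95.8, 97.6 and 72.2 CPM in EC KO 1 to EC KO 3. Every Hmox2-/- library lay below every Hmox2+/+ library, at 55.4% of the Hmox2+/+ level by the fit (log2 fold change -0.85, SE 0.18, edgeR adjusted p = 0.0202). With the offset for length and GC content it was -0.73 (adjusted p = 0.0277). Without EC KO 2 and EC KO 3 together it was -0.73 and no longer called (adjusted p = 0.303), as in 4 of 6 fits without 1 library, those without EC WT 1, EC WT 2, EC KO 2 or EC KO 3 (edgeR adjusted p = 0.0519 to 0.0785).

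Cell type marker sums also differed between the genotypes in these libraries, in both directions. The 12 cardiomyocyte markers summed to 133 to 534 CPM in EC WT and 11.1 to 14.6 CPM in EC KO, with at most 1 of them at 0 in a library. The 10 smooth muscle markers summed to 3601 to 7039 CPM in EC WT and 1201 to 3887 CPM in EC KO, ranges that overlap. The 10 fibroblast markers summed to 3272 to 5718 CPM in EC WT and 6713 to 7917 CPM in EC KO. The 10 macrophage markers summed to 488 to 648 and 851 to 1335 CPM, and the 12 endothelial markers to 2569 to 3722 and 4568 to 5344 CPM. Their part in the result was not tested.

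Trp53inp1, Sesn2 and Ccng1 lay lower and Eda2r higher in every EC KO library than in any EC WT library, and none of the 4 passed the test. Trp53inp1 was 42.3, 67.2 and 51.3 CPM in EC WT and 31.6, 29.2 and 41.0 CPM in EC KO (log2 fold change -0.66, SE 0.20, edgeR adjusted p = 0.0590). Sesn2, which restrains mTORC1 under stress (chromosome 4, 132219335 to 132237815, minus strand), was 19.5, 17.9 and 17.1 CPM in EC WT and 10.5, 13.6 and 14.9 CPM in EC KO (-0.48, SE 0.16, adjusted p = 0.0715). Both were called by DESeq2, with adjusted p-values of 0.0192 and 0.0462.

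Ccng1 was 162.3, 177.7 and 134.9 CPM in EC WT and 119.3, 132.8 and 117.4 CPM in EC KO (log2 fold change -0.36, SE 0.14, edgeR adjusted p = 0.102). Fold changes in ECs followed GC content. Across the 15301 genes tested, Spearman's rho with the log2 fold change was -0.33 for GC content and 0.11 for length. The median log2 fold change went from 0.32 in the 3061 genes of lowest GC content to -0.20 in the 3060 of highest. With the offset for length and GC content Ccng1 (-0.77, adjusted p = 0.0198) and Trp53inp1 (-1.13, adjusted p = 0.0234) were called. Their GC content (40.8% and 39.1%) and that of Eda2r (41.3%) were the lowest of the 10 genes. Ccng1 shares 114 exonic bases with Nudcd2 on the opposite strand. Eda2r, which encodes a receptor of the tumour necrosis factor family for ectodysplasin (chromosome X, 96320270 to 96420847, minus strand), was 2.40, 3.04 and 4.23 CPM in EC WT and 6.13, 4.98 and 6.47 CPM in EC KO. By the fit it differed by 0.86 on the log2 scale (SE 0.27, edgeR adjusted p = 0.0635), on 65 to 176 counts per library. On the TPM scale the groups overlapped. With the same offset Eda2r was 0.51 (edgeR adjusted p = 0.212) and Sesn2 -0.38 (adjusted p = 0.134), and neither was called. Eda2r was called in 2 of 10 alternative fits and in 1 of 6 fits without 1 library.

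Cdkn1a in ECs showed no step between genotypes. It was 67.7, 54.7 and 63.2 CPM in EC WT 1 to EC WT 3 and 88.1, 37.4 and 78.2 CPM in EC KO 1 to EC KO 3. EC KO 2 was the lowest of the 6 libraries, and EC KO 1 and EC KO 3 were the highest. The log2 fold change was 0.13 (SE 0.29, edgeR adjusted p = 0.768), and without EC KO 2 it was 0.43 (adjusted p = 0.130).

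Trp53 (33.1 to 40.9 CPM in EC WT and 34.6 to 37.4 CPM in EC KO), Mdm2 (34.9 to 41.5 and 27.0 to 35.4 CPM), Bax (22.6 to 27.0 and 22.7 to 31.03 CPM) and Bbc3 (3.54 to 6.38 and 4.30 to 6.16 CPM) overlapped between genotypes in ECs. Their log2 fold changes were -0.05 (SE 0.12), -0.27 (SE 0.14), 0.08 (SE 0.15) and 0.08 (SE 0.27). Bbc3 (chromosome 7, 16042318 to 16052130, plus strand) encodes Puma, which frees Bax to act.

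Whether the genotype effect itself differed between tissues was tested with an interaction over all 13 libraries. The record describes ECs and hearts as matched, but libraries could not be tied to mice, so the fit treats them as independent. For Cdkn1a the effect in heart exceeded that in ECs by 1.40 on the log2 scale (SE 0.33, edgeR adjusted p = 0.00688), and for Phlda3 by 1.05 (SE 0.30, adjusted p = 0.0171). The other 8 genes did not pass, with Eda2r (-0.92, SE 0.33, adjusted p = 0.0506) and Mdm2 (0.39, SE 0.14, adjusted p = 0.0565) closest to the threshold. Over all 15938 genes tested 28.8% were called (16.2% with the higher effect in heart), so the 2 of 10 called here are no more than the background. Leaving out any 1 library kept Cdkn1a called (adjusted p of at most 0.0182), while Phlda3 was not called without heart KO 1 (0.0520), without EC KO 2 and EC KO 3 together (0.119) or with the offset for length and GC content (0.59, adjusted p = 0.0875). With that offset Ccng1 (1.10, adjusted p = 0.00135) and Mdm2 (0.54, adjusted p = 0.0128) were called.

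The levels of the 10 genes also differed between the tissues of Hmox2+/+ mice. In TPM (which divides counts by length and allows genes to be compared), Phlda3 led in EC WT at 137 ± 16.8 TPM (SD, n = 3), above Ccng1 at 50.3 ± 9.29 TPM. Cdkn1a (38.7 ± 5.10 TPM), Bax (36.4 ± 8.05 TPM) and Trp53 (24.8 ± 4.80 TPM) followed, and each overlapped its neighbour in this order, as Ccng1 overlapped Cdkn1a. Mdm2 (16.5 ± 1.28 TPM) lay below Trp53 and overlapped Trp53inp1 (12.6 ± 3.80 TPM). Sesn2 (5.82 ± 0.55 TPM) and Bbc3 (4.41 ± 1.85 TPM) overlapped, and Eda2r was the lowest at 0.984 ± 0.41 TPM.

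In heart WT the order was another one. Ccng1 led at 246 ± 9.29 TPM (SD, n = 4), with Mdm2 (15.8 ± 1.25 TPM) and Bax (10.8 ± 2.37 TPM) next and overlapping. Cdkn1a (6.72 ± 0.57 TPM) and Trp53 (6.65 ± 0.71 TPM) overlapped below them. Phlda3 (3.48 ± 0.59 TPM) and Trp53inp1 (2.04 ± 0.46 TPM) stood apart from their neighbours, and Sesn2 (1.00 ± 0.13 TPM), Eda2r (0.826 ± 0.13 TPM) and Bbc3 (0.772 ± 0.30 TPM) overlapped at the bottom. In heart KO, Cdkn1a stood at 23.2 ± 4.22 TPM (SD, n = 3), above Bax at 19.3 ± 0.99 TPM in mean, though their ranges (18.5 to 26.6 and 18.2 to 19.99 TPM) overlapped.

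**Figure D3:**
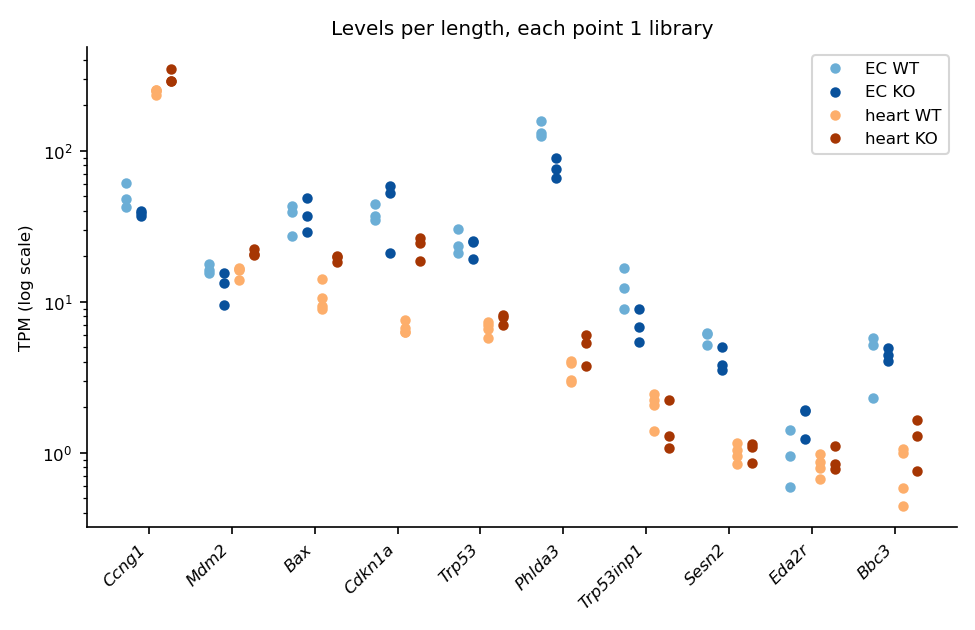
TPM of the 10 genes on a log axis, 1 point per library, ordered by the mean in heart WT. Ccng1 is at 232 to 253 TPM in heart WT and 42.6 to 60.6 TPM in EC WT, while Phlda3 is at 2.95 to 4.03 and 124 to 156 TPM.

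Tested on TMM-normalized counts, all 10 genes differed between heart WT and EC WT (edgeR adjusted p of at most 0.0108), where 65.8% of the 15938 genes tested did (32.1% higher and 33.7% lower in heart). Eda2r was not called with the offset for length and GC content (0.38, adjusted p = 0.135). The fitted log2 difference, heart minus ECs, was 3.26 (SE 0.15) for Ccng1, 0.92 (SE 0.10) for Mdm2 and 0.75 (SE 0.23) for Eda2r, and it was negative for the other 7, from -0.78 (Bax) to -4.32 (Phlda3). The scale matters here. The median over all genes tested was -0.05 by the fit and -1.02 for the ratio of mean TPM. On the TPM scale Mdm2 (-0.06) and Eda2r (-0.25) were not higher in heart and their libraries overlapped, while Ccng1 (2.29) was higher and the other 7 were lower on both scales. RNA was isolated with a different kit in each tissue, so kit and tissue cannot be told apart. The same shift of scale, smaller, holds within heart, where the median ratio of mean TPM of KO to WT was 0.31 on the log2 scale, and Ccng1 (0.33) and Mdm2 (0.41) were near it.

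The share of each gene's TPM in its leading transcript was compared between genotypes for the 9 genes with several listed transcripts. By a two-sided exact permutation test 0 of the 9 passed in either tissue, and 0 had an unadjusted p under 0.05. In ECs 3 against 3 libraries cannot reach a p below 0.1. In ECs, Trp53-201 held 84.3% to 92.3% of Trp53 in EC WT and 59.3% to 78.1% in EC KO, and Phlda3-201 held 94.2% to 98.6% and 92.3% to 93.7% of Phlda3 (exact permutation p = 0.1 each). In heart the share of Trp53-201 varied within genotypes, from 17.9% to 93.1% in heart WT. Sesn2 has 1 listed transcript.

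The regulators around p53 were described from a list of 21 genes, of which 19 passed the filter in each tissue. In heart 1 was higher and 7 were lower, where 17.2% and 16.2% of all genes tested were called in these directions, and the list's median log2 fold change was -0.28 against -0.01 for all genes. Mdm4, the partner of Mdm2 that inhibits p53, fell from 29.7 to 12.9 CPM (log2 fold change -1.21, SE 0.18, edgeR adjusted p = 9.55e-04). The damage kinase gene Atr (-0.77, adjusted p = 0.00422) and the coactivator gene Crebbp (-0.54, adjusted p = 0.0128) also fell. Rpl11, a ribosomal protein that binds Mdm2, rose from 59.3 to 206 CPM (1.80, SE 0.17, adjusted p = 4.43e-05).

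With the offset for length and GC content only 4 of these regulators were called in heart, 2 higher and 2 lower. Mdm4 (-0.93, adjusted p = 3.86e-04) and Rpl11 (1.19) were among them, while Atr (-0.11, adjusted p = 0.510) and Crebbp (-0.01, adjusted p = 0.949), of 7120 and 9404 bases, were not. In ECs 1 regulator was higher and 2 were lower, where 10% and 8.06% of all genes were. Hipk2, a kinase of p53, fell from 27.8 to 8.34 CPM (-1.74, SE 0.31, adjusted p = 0.0130), Trp53bp2 fell (-0.37, adjusted p = 0.0498) and Rpl11 rose (0.72, adjusted p = 0.0170). With the offset Trp53bp2 was not called (adjusted p = 0.0622). Without EC KO 2 and EC KO 3 together the list's median in ECs was -0.19, against -0.03 for all genes. Without EC WT 1 or EC KO 2, 1 regulator was called in ECs, in fits with fewer calls over all genes. Mdm4 shares 13.7% and Rpl11 16.4% of their sequence words with other genes, pseudogenes among them.

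Beyond the 10 genes, 61 further p53 targets were listed by role, of which 57 were tested in heart and 59 in ECs. In heart 11 rose and 6 fell, where 17.2% and 16.2% of all genes were called in these directions, and the median was 0.09 against -0.01 for all genes. In ECs 5 rose and 6 fell, where 10% and 8.06% of all genes were, and the median was -0.09 against -0.02. In both tissues targets moved in both directions. DESeq2 called 18 in heart and 17 in ECs. Over all genes it called 2482 higher and 2382 lower of 13816 in heart, and 2090 and 1943 of 15301 in ECs. The 11 calls in ECs varied with the library left out. There were 0 without EC KO 3, 3 without EC KO 2 and 5 without EC KO 1. There were 6 without EC WT 1, 7 without EC WT 2 and 17 without EC WT 3. Calls over all genes moved the same way. They were 375 higher and 263 lower of 15679 without EC KO 3, against 1532 and 1234 of 15301 with all EC libraries. Without EC KO 2 they were 631 and 411 of 15870. Without EC KO 2 and EC KO 3 together the median of the targets was -0.05, against -0.03 for all genes.

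Among the targets of metabolism, redox and autophagy, 6 of 15 rose and 1 fell in heart, where 17.2% and 16.2% of all genes were called in these directions. Gpx1, a glutathione peroxidase, rose from 29.2 to 62.5 CPM (log2 fold change 1.09, SE 0.15, edgeR adjusted p = 7.31e-04), and Prkab1, a subunit of AMP-activated kinase, from 26.1 to 36.9 CPM (0.50, adjusted p = 0.00362). Sco2, for the assembly of cytochrome c oxidase, also rose (1.11, adjusted p = 0.00119) but shares 96.6% of its words with other genes, mainly Tymp, and is uncertain. Pank1, of coenzyme A synthesis, fell (-0.40, adjusted p = 0.0320). With the offset for length and GC content 6 rose and none fell in heart, Gpx1 at 0.59 and Prkab1 at 0.31. Over all 13816 genes tested, 1934 were called higher and 1665 lower with it.

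In ECs 1 of 16 of these genes rose and 3 fell, where 10% and 8.06% of all genes were called, and the median was -0.43. Lpin1, a phosphatidate phosphatase, fell from 244 to 111 CPM (-1.14, SE 0.19, edgeR adjusted p = 0.00955), Pank1 from 208 to 89.6 CPM (-1.22, adjusted p = 0.0381) and Prkab1 from 34.9 to 25.0 CPM (-0.48, adjusted p = 0.0386). Pltp, a phospholipid transfer protein, rose (0.54, adjusted p = 0.0475). These 4 calls became 0 without EC KO 3, 1 without any of EC WT 1, EC WT 2, EC KO 1 and EC KO 2, and 7 without EC WT 3. Calls over all genes moved in the same direction in each of these fits. Prkab1 rose in heart and fell in ECs, and the effects differed between tissues by 1.02 on the log2 scale (SE 0.15, edgeR adjusted p = 5.73e-04).

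Of 14 cell death targets, 2 rose and 3 fell in ECs, where 10% and 8.06% of all genes were called. These 5 calls became 0 without EC KO 3, 1 without EC KO 1 and 2 without EC KO 2, fits in which calls over all genes also fell. Perp, a membrane protein of cell junctions, rose from 22.6 to 48.4 CPM (log2 fold change 1.10, SE 0.19, edgeR adjusted p = 0.0122) and Zmat3 rose (1.30, adjusted p = 0.0184). Tnfrsf10b, the receptor of the death ligand TRAIL, fell (-1.07, adjusted p = 0.0200), as did Pmaip1, which encodes Noxa (-1.94, adjusted p = 0.0203), and Bid (-0.88, adjusted p = 0.0348). In heart Triap1 rose (0.67, adjusted p = 0.00346), and Tnfrsf10b (-0.998, adjusted p = 0.00348) and Apaf1 (-0.78, adjusted p = 0.00597) fell. With the offset Tnfrsf10b stayed called in heart (-0.92) and Triap1 (0.28, adjusted p = 0.0801) and Apaf1 (-0.39, adjusted p = 0.0524) did not.

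Among 9 targets of arrest and feedback, 1 rose and 2 fell in heart and none was called in ECs by edgeR (2 at an unadjusted p under 0.05, and 2 by DESeq2). Over all genes, edgeR called 17.2% higher and 16.2% lower in heart, and 10% and 8.06% in ECs. In heart the antiproliferative gene Btg2 fell from 47.3 to 20.8 CPM (log2 fold change -1.15, SE 0.24, adjusted p = 0.00518) and the kinase gene Plk3 fell (-0.71, adjusted p = 0.0441), opposite to Cdkn1a. Rchy1, a ligase of p53, rose (0.50, adjusted p = 0.00790), but shares 20.8% of its words with other genes. No DNA repair target was called by edgeR or DESeq2 in either tissue (1 of 6 at an unadjusted p under 0.05 in each), though the offset gave 1 higher and 1 lower in heart. Of 13 further targets in heart, 3 rose, Dcxr (0.66), Ephx1 (0.45) and Abhd4 (0.34), and 1 fell. With the offset none of these 3 was called (0.16, 0.22 and 0.23, adjusted p = 0.365, 0.0667 and 0.0516), and the list had 1 higher and 2 lower. Of 14 in ECs, Tgfa (0.83) and Ephx1 (0.82) rose, and the list had 0 to 3 calls with 1 library left out. It had none without EC WT 1, EC KO 2 or EC KO 3, fits in which calls over all genes also fell.

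**Figure D4:**
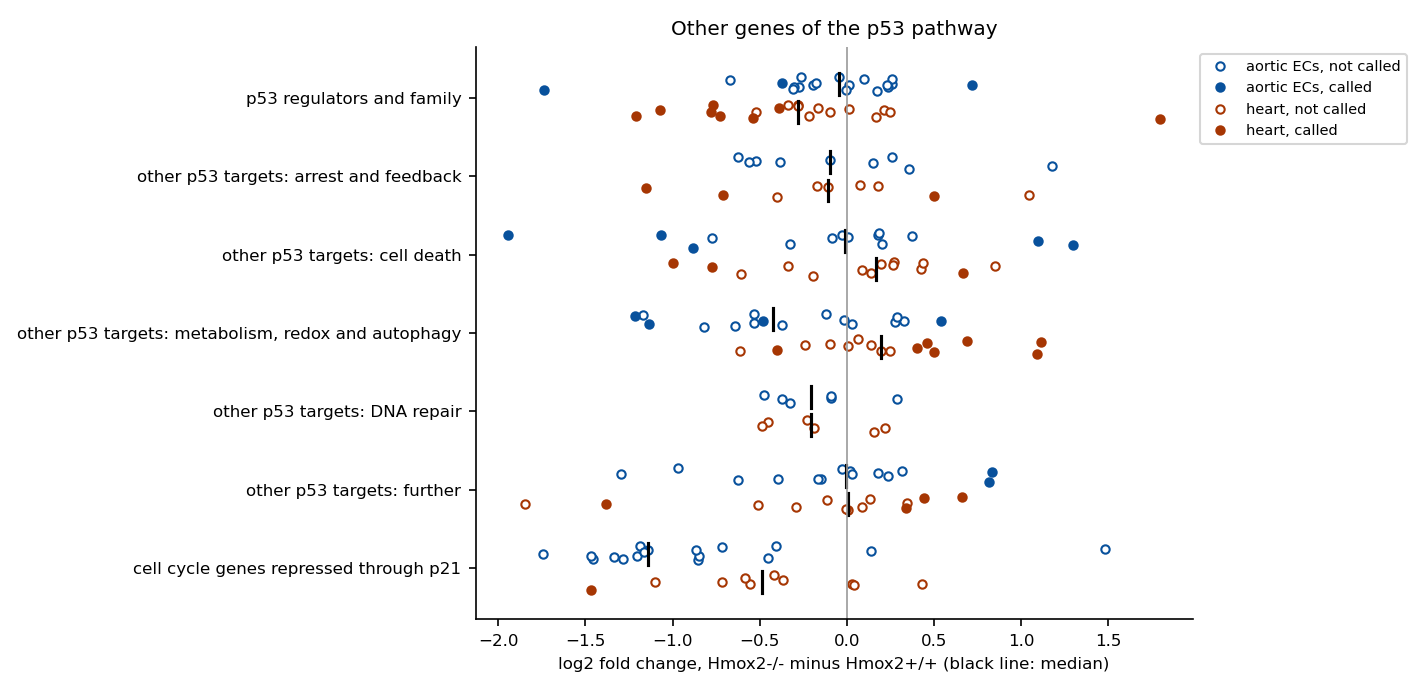
Log2 fold change of Hmox2-/- minus Hmox2+/+ libraries for the regulators, the other targets by role and the cell cycle genes repressed through p21, 1 point per gene tested, filled where edgeR's adjusted p was at most 0.05, with a black line at the median. Points of both directions are filled in most lists, and the EC median of the cell cycle genes lies at -1.14 with no gene called (-0.32 without EC WT 2).

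Genes of the cell cycle that p21 represses were read beside Cdkn1a. In heart 10 of 17 passed the filter and 1 was called lower, against 16.2% of all genes tested, so it is no more than the background. It was the proliferation marker gene Mki67, which fell from 3.09 to 1.09 CPM (log2 fold change -1.47, SE 0.31, edgeR adjusted p = 0.00519). With the offset it was -0.85 (edgeR adjusted p = 0.0375). The list's median in heart was -0.49. In ECs, where Cdkn1a did not pass, 15 of 17 had a negative fitted value, as had 7867 of all 15301 genes tested, and the median was -1.14, but none was called by edgeR or DESeq2 (1 at an unadjusted p under 0.05). Mki67 in ECs was 25.3 CPM in EC WT and 7.55 CPM in EC KO on average, with an SE of 0.82 on the log2 scale. The EC median rested largely on EC WT 2, without which it was -0.32, and it was -1.43 without EC WT 1. EC WT 2 also held the highest sum of the 10 lymphocyte markers (140 CPM, against 21.5 to 54.4 CPM in the other EC libraries), whose part in the median was not tested.

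The calls of the genes above were followed across all settings. Cdkn1a in heart was called in all 9 alternative fits and all 7 fits without 1 library. Trp53inp1 in heart was called in 7 of 9 and 2 of 7, Bax in heart in 6 of 9 and 4 of 7, and Phlda3 in ECs in 9 of 10 and 2 of 6.

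**Figure D5:**
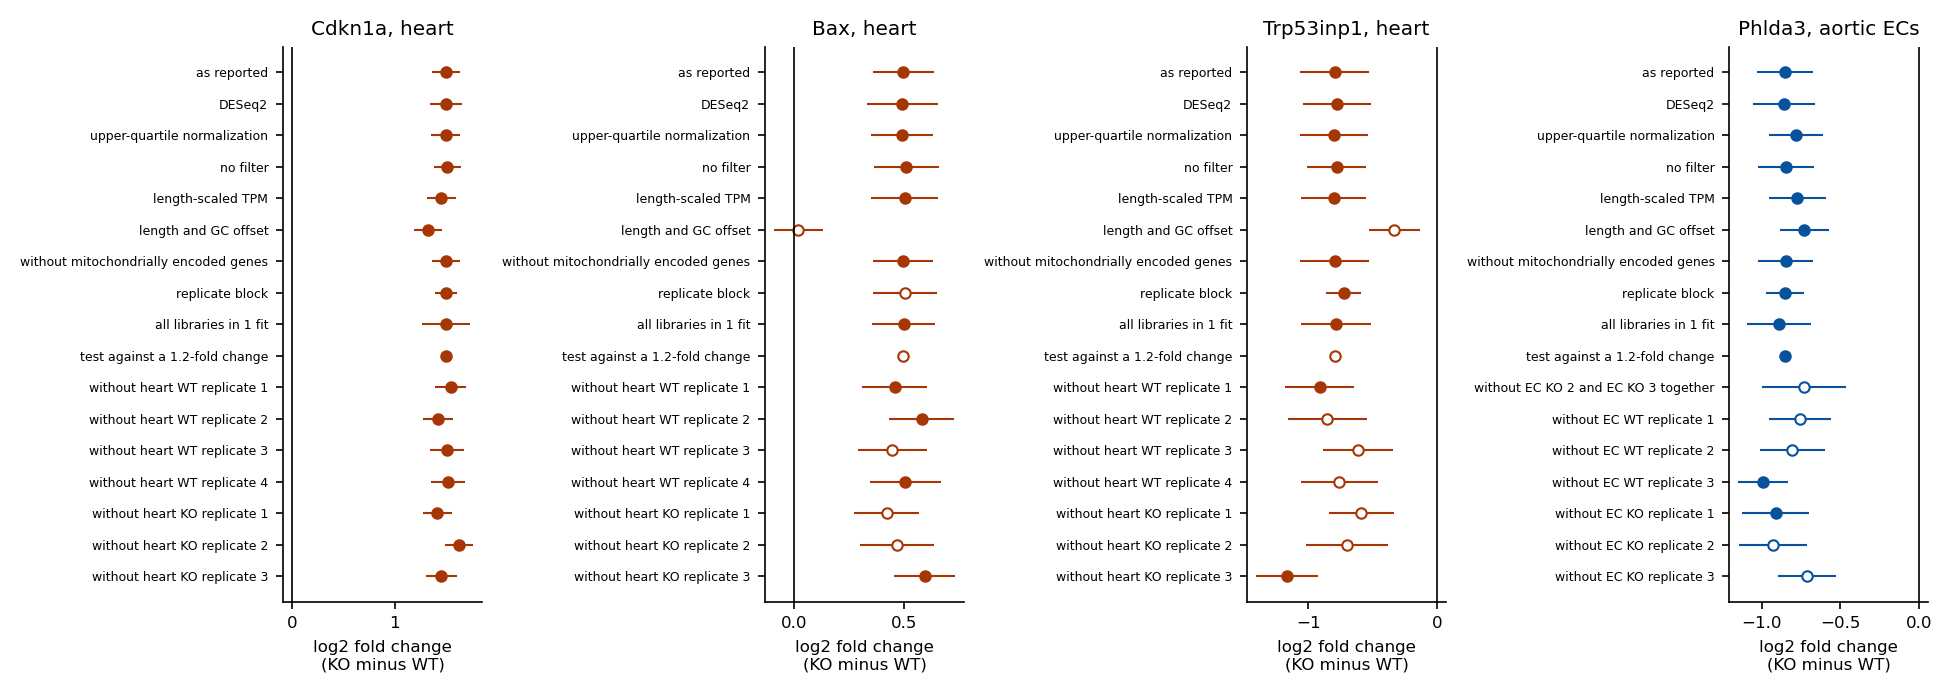
Log2 fold change, Hmox2-/- minus Hmox2+/+, of the 4 calls among the 10 genes under every setting, with the SE where the fit gives one and filled points for an adjusted p of at most 0.05. Cdkn1a in heart keeps a value of 1.32 to 1.63 in every row, while Bax in heart is at 0.02 with the offset for length and GC content.

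Genes whose pattern was most like that of each gene were found among 13351 genes by Pearson's r over 13 libraries, in log2 CPM centred on the mean of each tissue. They are given as a description. For Cdkn1a they were Bcat2 (r = 0.93), Gabarapl1 (0.91) and Nr2c2ap (0.89), for Bax Cmtm7 (0.96), Isg20 (0.95) and Eef1d (0.95), for Trp53inp1 Atp13a3 (0.96), Cep97 (0.92) and Secisbp2l (0.92), and for Trp53 Ocel1 (0.81), Rab36 (0.80) and Rasgrp4 (0.80). Among the 10 genes the highest r was between Bax and Cdkn1a (0.74), and these points share libraries, depth and genotype.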

How the data were processed

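Total RNA of aortic ECs (TRI Reagent) and pulverised whole hearts (RNeasy) was sequenced as 100-base paired-end reads. The authors quantified transcripts by pseudoalignment with Kallisto 0.44.0. The deposited files hold, per transcript, estimated counts, not normalized, and TPM. The study's methods name GENCODE M32 (GRCm39), while the submitters' processing notes name mm10 and GRCh38.p13. Of 118489 listed transcripts, 115140 (97.2%) were matched by identifier to GENCODE M39 and summed to 36109 genes, and unmatched ones were left out.

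Estimated counts were rounded, filtered with filterByExpr (minimum count 10), TMM-normalized within the libraries of each fit, and tested with edgeR 4.0.16 (quasi-likelihood F-test, R 4.3.3) without covariates. The SE of an edgeR log2 fold change was its absolute value divided by the square root of the F statistic. A gene counted as called when its p, adjusted over the whole table by the Benjamini-Hochberg method, did not exceed 0.05. Alternatives were DESeq2 1.42.0, other normalizations and filters, a replicate block, and an offset for length and GC content (mgcv 1.9.3). The fits were tested on simulated data. The series record describes matched ECs and hearts, but no label says which libraries share a mouse. The tests as reported therefore treat the libraries as independent, and their p-values rest on the spread between these libraries.

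The 10 genes, the lists and the tests were chosen with earlier results of these data known. The genes named from each list were those called, at most 3 per direction by adjusted p. A called gene of the further targets is not reported here. For Trp53 and the 3 genes with the smallest adjusted p in heart, the 3 genes of highest Pearson's r were named. Shared sequence was counted in words of 31 bases.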

Additional observations from a re-analysis of the deposited data

Results flagged for a closer look

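The genotype effect of Cdkn1a differed between tissues, by a test of the difference itself. The heart effect exceeded the EC effect by 1.40 on the log2 scale (SE 0.33, edgeR adjusted p = 0.00688), with 3 of 3 Hmox2-/- hearts above all Hmox2+/+ hearts, and Hmox2-/- EC libraries on both sides of the Hmox2+/+ ones.

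The genotype effect of Phlda3 differed in the same way, by 1.05 (SE 0.30, edgeR adjusted p = 0.0171), with 3 of 3 Hmox2-/- EC libraries below all Hmox2+/+ ones and overlapping values in heart. In the 4 heart WT libraries none of the 10 genes had a library far from the others by Dixon's criterion, and groups of 3 were not examined.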

How the results depend on the processing

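The count of called genes among the 10 depended on the setting most in ECs. There 1 was called as reported, 4 with DESeq2, 2 without a filter, 2 with length-scaled TPM, 3 with the offset for length and GC content, 5 with all libraries in 1 fit and 0 without EC KO 2 and EC KO 3 together, and 0 to 3 with 1 library left out. In heart 3 were called as reported, 1 in the test against a 1.2-fold change, and 1 to 3 with 1 library left out. For the interaction 2 were called as reported, 5 with DESeq2, 1 without EC KO 2 and EC KO 3 together, and 1 to 4 with 1 library left out.

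Over all genes, 2766 were called in ECs, 4319 with all libraries in 1 fit (1926 higher and 2393 lower, against 1532 and 1234), 1544 in the test against a 1.2-fold change, 49 without EC KO 2 and EC KO 3 together, and 638 to 3596 with 1 library left out. In heart 4618 were called, 2382 in the test against a 1.2-fold change and 2888 to 5686 with 1 library left out. The interaction called 4596 genes, 1649 without EC KO 2 and EC KO 3 together and 3344 to 5201 with 1 library left out. With upper-quartile normalization its calls were 2115 higher and 2485 lower, against 2579 and 2017. With DESeq2 they were 2966 higher and 2270 lower of 15938 genes tested.

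The replicate block called 2899 genes in heart and took the call from Bax (adjusted p = 0.0520). Same-numbered libraries of the 2 genotypes had correlations of their deviations of 0.181, 0.0400 and 0.0872 in ECs and -0.0335, 0.0772 and 0.0370 in heart. Not every library correlated best with its own number. Between ECs and heart, same-numbered libraries had 0.0752, 0.0379 and 0.0424 in Hmox2+/+ and 0.121, -0.0681 and 0.219 in Hmox2-/- mice. Such correlations cannot decide whether same-numbered libraries are paired.

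Values that changed sign were small or rested on the offset. In ECs Trp53 was 0.0198 with upper-quartile normalization and 0.0139 with the offset. In heart Ccng1 was -0.000968 with upper-quartile normalization, -0.0127 with length-scaled TPM and -0.00244 with the replicate block, and with the offset Bbc3 was -0.24, Eda2r 0.19 and Phlda3 -0.14. In the interaction Bbc3 was -0.0228 with upper-quartile normalization, and with the offset Bax was -0.28, Bbc3 -0.41 and Trp53inp1 0.87. Without EC KO 2 and EC KO 3 together Bbc3 was -0.14 and Trp53inp1 0.00982. With 1 library left out, EC values ran from -0.12 to 0.28 (Bbc3), -0.13 to 0.0149 (Trp53), -0.10 to 0.43 (Cdkn1a) and -0.0674 to 0.17 (Bax), heart values from -0.0324 to 0.0573 (Ccng1), -0.10 to 0.29 (Bbc3), -0.00360 to 0.40 (Phlda3) and -0.18 to 0.00246 (Trp53), and interaction values from -0.0932 to 0.0919 (Trp53), -0.13 to 0.27 (Bbc3) and -0.46 to 0.13 (Trp53inp1). The cause was not tested. Of the other values of single genes under the alternative settings, 308 kept their direction and side of the threshold, 19 gained a call and 9 lost one. With 1 library left out, 344 kept both, 8 gained a call and 13 lost one. In heart WT 1 Bbc3, Eda2r, Sesn2 and Phlda3 had 7 to 27 counts.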

Other observations

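Genes of the circadian clock differed between the hearts. Of 13 clock genes 2 rose and 9 fell in Hmox2-/- hearts, where 17.2% and 16.2% of all genes tested were called in these directions. Dbp, an output gene of the clock, fell from 78.8 to 25.0 CPM (log2 fold change -1.66, SE 0.19, edgeR adjusted p = 1.59e-04), Per1 from 64.1 to 29.8 CPM (-1.12, SE 0.15) and Nr1d1 from 94.4 to 47.5 CPM (-0.99, SE 0.14). Bmal1, the core activator, rose from 4.28 to 11.7 CPM (1.58, SE 0.31) and Cry1 from 4.90 to 7.30 CPM (0.60, SE 0.17). Nr1d1 shares 51.0% of its sequence words with other genes, mainly Thra, and is uncertain. In ECs Dbp went from 109 to 63.5 CPM (-0.78, SE 0.55, adjusted p = 0.344) and did not pass. The hour at which tissue was taken is not given in the sources used here, and its part in the values of Cdkn1a was not tested.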
